A study of Mus musculus with 8 samples.

Results

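The genes examined here encode the isozymes of the upper steps of glycolysis: the glucose transporter Slc2a1, the hexokinases Hk1 and Hk2, the phosphofructokinases Pfkl, Pfkm and Pfkp, the PFK-2/FBPase-2 enzymes Pfkfb3 and Pfkfb4, and the aldolases Aldoa and Aldoc. They were taken by symbol, 10 of the 37310 genes in the count table, so that the balance of isozymes at each step could be followed across genotype and TGF-β treatment. The RNA came from NMuMG, an epithelial cell line derived from the mammary gland of a mouse, in 4 groups of 2 libraries each, 8 libraries in all. Control cells were either left untreated or given 10 ng/ml TGF-β1 for 2 h, and so were cells labelled as a knockout (KO) of the long noncoding RNA Lnc-Nr6a1. All groups were grown in medium with serum and insulin. Per the study's methods, the KO was made with Cas9 and guides in the promoter and first exon, and cells were sorted singly to give clones, so a difference between genotypes cannot be told apart from a difference between clones. The study's methods call the 2 libraries of a group biological replicates but do not say whether they came from separate cultures or clones, so p-values measure only the spread between these libraries.

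Total counts ran from 4297832 to 13574397 per library, and 13028 genes passed the filter on low counts, all 10 isozyme genes among them. The targeted gene, listed as Gm13507, had 3 and 14 counts in the control libraries, 25 and 35 in the treated control libraries, 11 and 7 in the KO-labelled libraries and 0 and 0 in the treated KO-labelled libraries. It was thus at 0 after treatment, where the difference was significant (adjusted p = 0.00984), but without treatment the genotypes did not differ in it significantly (adjusted p = 0.785), so genotypes are named below as the labels give them. The 7 epithelial markers summed to 5872 to 6968 CPM in untreated and 7939 to 10938 CPM in treated libraries (CPM are counts scaled to a common library size by TMM, the trimmed mean of M values), led by keratin genes, with Cldn3 at 0 and Epcam at 0 to 2 counts. The summed markers of skeletal muscle, the tissue in which Pfkm is the main PFK-1 gene, did not exceed 0.882 CPM, with Ckm at 0 in every library. Those of fibroblasts, endothelium, leukocytes and adipocytes did not exceed 5.32 CPM, and those of myoepithelium, led by Krt14 with Acta2 at 0 or 1 count, were 2.79 to 5.43 CPM in untreated and 23.1 to 41.9 CPM in treated libraries. The part of these shifts in the results of TGF-β was not tested. In bulk RNA, a change in the share of cells that express a gene and a change per cell cannot be told apart.

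Glucose enters most cells through GLUT1, the product of Slc2a1, and is trapped by hexokinase. Phosphofructokinase-1 (PFK-1) then commits the sugar to glycolysis, and aldolase splits the product into triose phosphates. The PFK-2/FBPase-2 enzymes make and break the sugar bisphosphate that activates PFK-1. Each step has isozymes that differ in tissue distribution and regulation: Hk1 is the widespread form and Hk2 the form that growth signals, insulin and low oxygen raise, Pfkl, Pfkm and Pfkp are named for liver, muscle and platelet, and Aldoa and Aldoc are the muscle and brain forms.

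A gene was called where its adjusted p was below 0.05 and its log2 fold change was larger than 0.5 in size, in the main edgeR fit unless another fit is named. After 2 h of TGF-β, 5 of the 10 genes were called between the KO-labelled and control cells, where 15% of all tested genes were called in either direction: Hk1, Pfkm and Pfkfb4 were higher (8.47% of all genes were called higher) and Pfkp and Aldoc lower (6.57%). Without TGF-β only Pfkm was called in the main edgeR fit, higher in KO-labelled cells, against 1.83% of all genes (1.03% higher and 0.798% lower). DESeq2, which called 428 genes there, also called Hk1, Pfkp, Aldoa and Aldoc (adjusted p = 0.0443, 0.0158, 0.0305 and 0.00934). TGF-β raised Hk2 and Pfkfb3 in both genotypes, raised Pfkfb4 significantly in the KO-labelled cells and lowered Hk1 significantly in the control cells. That made 3 of the 10 genes called in control cells (9.16% of all genes, 4.69% higher and 4.47% lower) and 3 in KO-labelled cells (6.82%, 4.25% higher and 2.57% lower). Other fits lost some of these calls. With limma-voom they were Hk2 and Pfkfb3 in control cells (adjusted p = 0.0568 and 0.0693) and Pfkfb3 in KO-labelled cells (0.0945). With only the 4 libraries compared it was Hk1 in control cells (0.0851). Slc2a1, Pfkl and Aldoa were not called in any comparison of the main edgeR fit. The median log2 fold change of the 10 genes was -0.19 for genotype without TGF-β, 0.26 for genotype with TGF-β, 0.06 for TGF-β in control cells and 0.19 for TGF-β in KO-labelled cells, beside all-gene medians of 0.02, -0.01, 0.02 and 0.00. These comparisons share libraries in pairs, so a gene called in more than 1 of them is not independent evidence. Statements below that libraries do or do not overlap are descriptions. With 2 libraries a group, an exact permutation test cannot go below p = 0.333. The share of all tested genes without overlap is not given here.

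**Figure D1:**
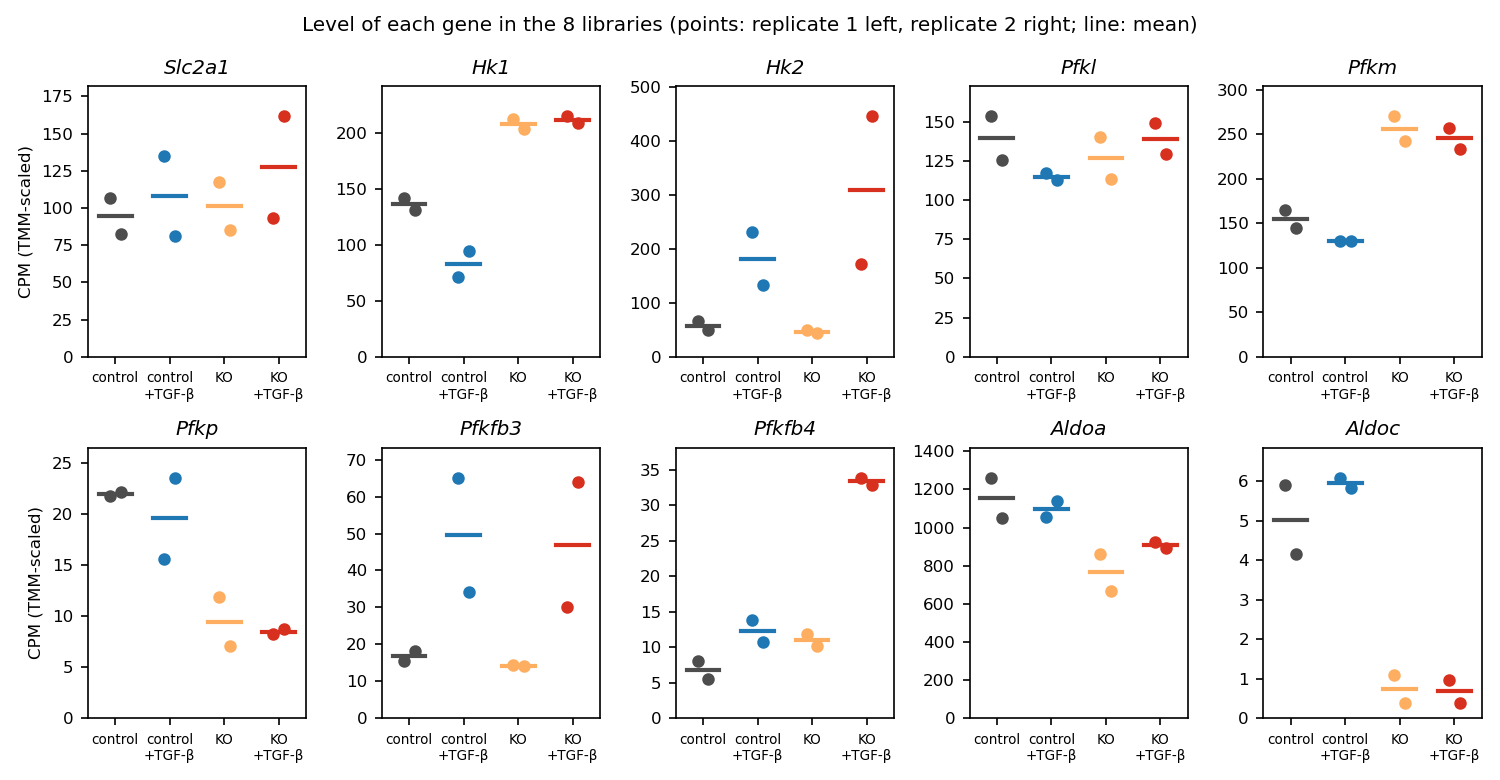
Level of each of the 10 genes in CPM (linear axes from 0, 1 scale per gene) in the 8 libraries, with replicate 1 at left and replicate 2 at right in each group and a line at the group mean. Hk1 and Pfkm are higher in all 4 KO-labelled libraries than in all 4 control libraries, Pfkp and Aldoc are lower in all 4, and Hk2 and Pfkfb3 are higher in the treated libraries of both genotypes.

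Slc2a1 (chr4:118781316-118809935, plus strand) did not change significantly in any comparison. Its level was 107 and 82.5 CPM in control cells, 135 and 81.2 CPM in treated control cells, 117 and 85.2 CPM in KO-labelled cells and 93.3 and 162 CPM in treated KO-labelled cells. The groups overlapped in all 4 comparisons. The log2 fold changes lay between 0.09 and 0.34, with standard errors of about 0.31, and the 95% interval for TGF-β in KO-labelled cells ran from -0.36 to 1.03, so a rise to double the level could not be told from none. The other facilitative transporters on the list were hardly detected, with Slc2a3 at 0 or 1 count and Slc2a4 at 0 in every library.

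At the hexokinase step the 2 isozymes moved apart. Hk1 (chr10:61731603-61842656, minus strand) stood in control cells at 142 and 131 CPM, and in KO-labelled cells at 213 and 204 CPM. After TGF-β the levels were 71.8 and 94.6 CPM in the controls and 216 and 209 CPM in KO-labelled cells. Every KO-labelled library was therefore above every control library, and the treated control libraries were the lowest. With TGF-β, Hk1 was 2.55-fold higher in KO-labelled cells (log2 fold change 1.35, SE 0.16, adjusted p = 0.00163), and without it 1.52-fold higher with an adjusted p of 0.102 (log2 0.61, SE 0.16). In control cells TGF-β lowered Hk1 1.65-fold (log2 -0.72, SE 0.16, adjusted p = 0.0259), whereas in KO-labelled cells the log2 fold change was 0.03 (SE 0.16, adjusted p = 0.942). The difference between these responses was 0.75 on the log2 scale (SE 0.22), and its test missed the threshold (adjusted p = 0.467, unadjusted p = 0.00783).

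Hk2 (chr6:82675019-82724448, minus strand) was higher after TGF-β in both genotypes. From 66.2 and 49.7 CPM in control cells it rose to 231 and 132 CPM, and from 49.4 and 44.1 CPM in KO-labelled cells to 172 and 446 CPM. No treated library overlapped with an untreated one. The rise was 3.13-fold in control cells (log2 1.65, SE 0.41, adjusted p = 0.0377) and 6.62-fold in KO-labelled cells (log2 2.73, SE 0.43, adjusted p = 0.00635), and the 2 responses were not shown to differ (log2 difference 1.08, 95% interval -0.20 to 2.36, adjusted p = 0.624). Between genotypes Hk2 was not called, either without TGF-β (log2 -0.31, adjusted p = 0.778) or with it (log2 0.77, SE 0.39, adjusted p = 0.217). The latter rested on 1 library: it was 1.30 (adjusted p = 0.025) without replicate 1 of the treated KO-labelled cells and -0.06 without replicate 2. On all libraries it was called without the filter on low counts (log2 0.80, adjusted p = 0.00024) and with exchanged replicate numbers as a block (log2 0.70, adjusted p = 0.0471).

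Per kilobase of exon, Hk2 made up 39.9% and 35.1% of the summed Hk1 and Hk2 level in control cells and 24.9% and 23.6% in KO-labelled cells. After TGF-β its share was 82.1% and 66.7% in control cells and 53.3% and 75.3% in KO-labelled cells. On this scale Hk2 was the minor transcript in the untreated and the major one in the treated libraries. These shares depend on the length used for each gene. With the longest transcript in place of the exon union the mean share of Hk2 was 24.6%, 61.7%, 14.8% and 50.3% in control, treated control, KO-labelled and treated KO-labelled cells, and in replicate 1 of the treated KO-labelled cells it was 38.3%, so that Hk2 stayed the minor form there. The ratio of Hk2 to Hk1 does not depend on that choice in comparisons between groups: it rose 5.05-fold with TGF-β in control cells (log2 2.34, 1.74 without replicate 1 and 2.94 without replicate 2 of the treated control cells) and 5.82-fold in KO-labelled cells (log2 2.54, 3.25 without replicate 1 and 1.83 without replicate 2 of the treated KO-labelled cells). It was 1.87-fold lower in KO-labelled than in control cells without TGF-β. With TGF-β the genotypes overlapped in this ratio. With 2 libraries a group an exact permutation test of a ratio cannot go below p = 0.333, so the ratios are given without a test. The summed level of both genes was 25.8 ± 2.87, 40.2 ± 9.77, 32.3 ± 1.42 and 76.7 ± 31.9 CPM per kb (SD, n = 2) in the same order of groups. Hk3 and Hkdc1, which also encode hexokinases, had at most 8 counts in any library.

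**Figure D2:**
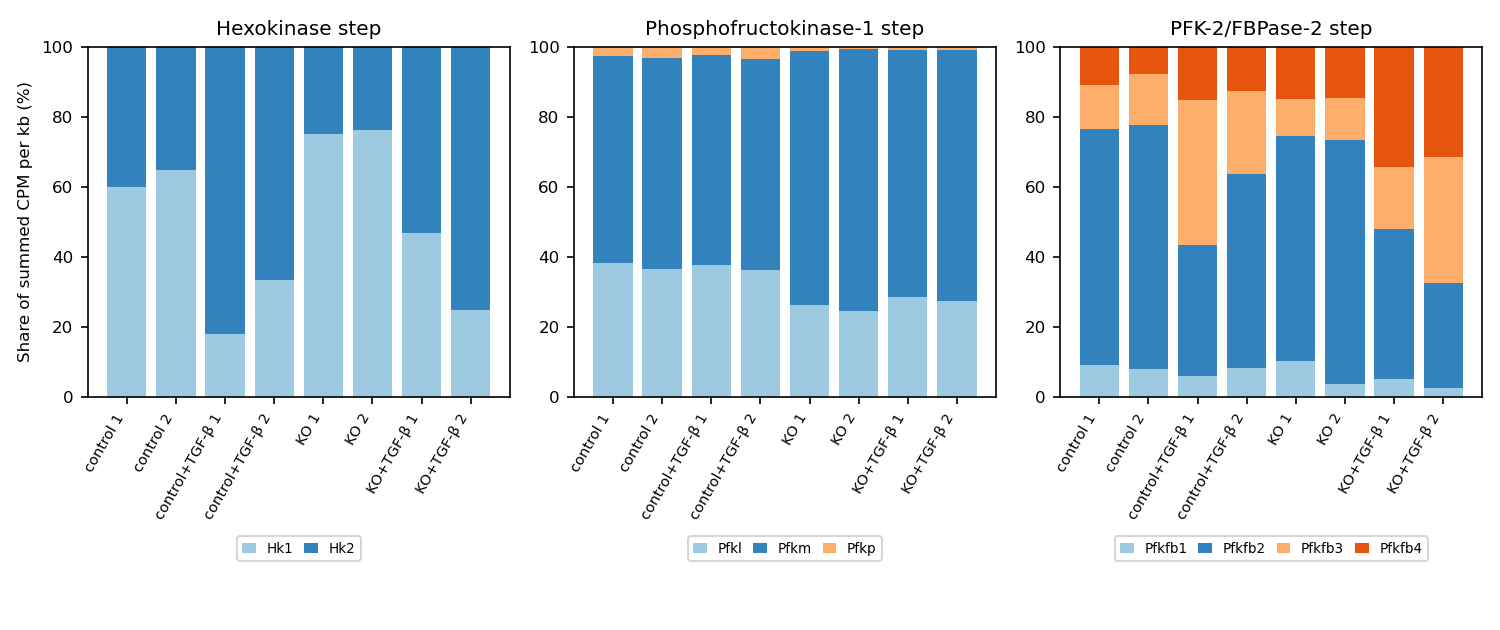
Share of each isozyme in the summed CPM per kb of exon at 3 steps, 1 bar per library, with Pfkfb1 and Pfkfb2 included at the PFK-2/FBPase-2 step. Hk2 takes 53.3% to 82.1% of the hexokinase bar in treated libraries, Pfkm takes 70.8% to 74.9% of the PFK-1 bar in KO-labelled libraries against 59.2% to 60.5% in control libraries, and Pfkfb4 takes its largest share in the treated KO-labelled libraries.

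At the PFK-1 step the muscle form gained on the liver form in KO-labelled cells. Pfkm (chr15:97923020-97962878, plus strand) stood in control cells at 165 and 145 CPM, and in KO-labelled cells at 270 and 242 CPM. After TGF-β these levels were 130 and 130 CPM in the controls and 257 and 234 CPM in KO-labelled cells. The genotypes did not overlap with or without TGF-β, and the 2 libraries of a group lay close together. Pfkm was 1.65-fold higher in KO-labelled cells without TGF-β (log2 0.73, SE 0.14, adjusted p = 0.0344) and 1.88-fold higher with it (log2 0.91, SE 0.14, adjusted p = 0.00467), while TGF-β itself gave -0.25 in control cells and -0.06 in KO-labelled cells (log2, adjusted p = 0.277 and 0.837). The call without TGF-β was not firm: leaving out either control, either KO-labelled or either treated KO-labelled library in turn moved the adjusted p to between 0.0551 and 0.334, with log2 fold changes of 0.63 to 0.82.

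Pfkl (chr10:77449692-77472828, minus strand), the liver form, was not called in any comparison. Its levels ran from 113 to 154 CPM over the 8 libraries and its log2 fold changes from -0.28 to 0.27. With TGF-β the genotypes did not overlap (117 and 113 CPM in control, 149 and 129 CPM in KO-labelled cells). Treated and untreated control cells did not overlap either. Pfkp (chr13:6579014-6648023, minus strand), the platelet form, was the rarest of the 3. It stood at 21.8 and 22.2 CPM in control cells, 15.6 and 23.6 CPM in treated control cells, 11.9 and 7.04 CPM in KO-labelled cells and 8.23 and 8.74 CPM in treated KO-labelled cells. Each KO-labelled library was below each control library. With TGF-β Pfkp was 2.31-fold lower in KO-labelled cells (log2 -1.21, SE 0.29, adjusted p = 0.0242), and without it 2.37-fold lower with an adjusted p of 0.0836 (log2 -1.24, SE 0.30). The call with TGF-β was lost without replicate 2 of the treated control cells (log2 -0.88, adjusted p = 0.0989) and without replicate 1 (log2 -1.15, adjusted p = 0.0881) or replicate 2 (log2 -1.23, adjusted p = 0.107) of the treated KO-labelled cells. The summed counts behind it were 390 in control and 211 in KO-labelled cells, which gave, scaled by library, a ratio of 2.28 with a 95% interval of 1.93 to 2.71 for counting error only. Exons of Pfkp overlap those of Pitrm1 on the opposite strand, whose level ran from 172 to 251 CPM, and how the counting treated strand is not given in the sources used here, so Pfkp values may hold reads of Pitrm1.

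In shares of the PFK-1 step per kilobase, Pfkm held 59.2% to 60.5% in the 4 control libraries and 70.8% to 74.9% in the 4 KO-labelled libraries. Pfkl held 36.2% to 38.3% and 24.4% to 28.5%, and Pfkp 2.35% to 3.54% and 0.707% to 1.04%. For all 3 genes the ranges of the genotypes were apart, and TGF-β shifted the shares by less than the genotypes differed. The ratio of Pfkm to Pfkl was 1.82-fold higher in KO-labelled cells without TGF-β and 1.56-fold higher with it, and that of Pfkp to Pfkl was 2.17-fold and 2.73-fold lower. The summed level was 84.9 ± 9.06 CPM per kb in control, 70.9 ± 0.0568 in treated control, 114 ± 11.2 in KO-labelled and 113 ± 8.43 in treated KO-labelled cells (SD, n = 2).

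**Figure D3:**
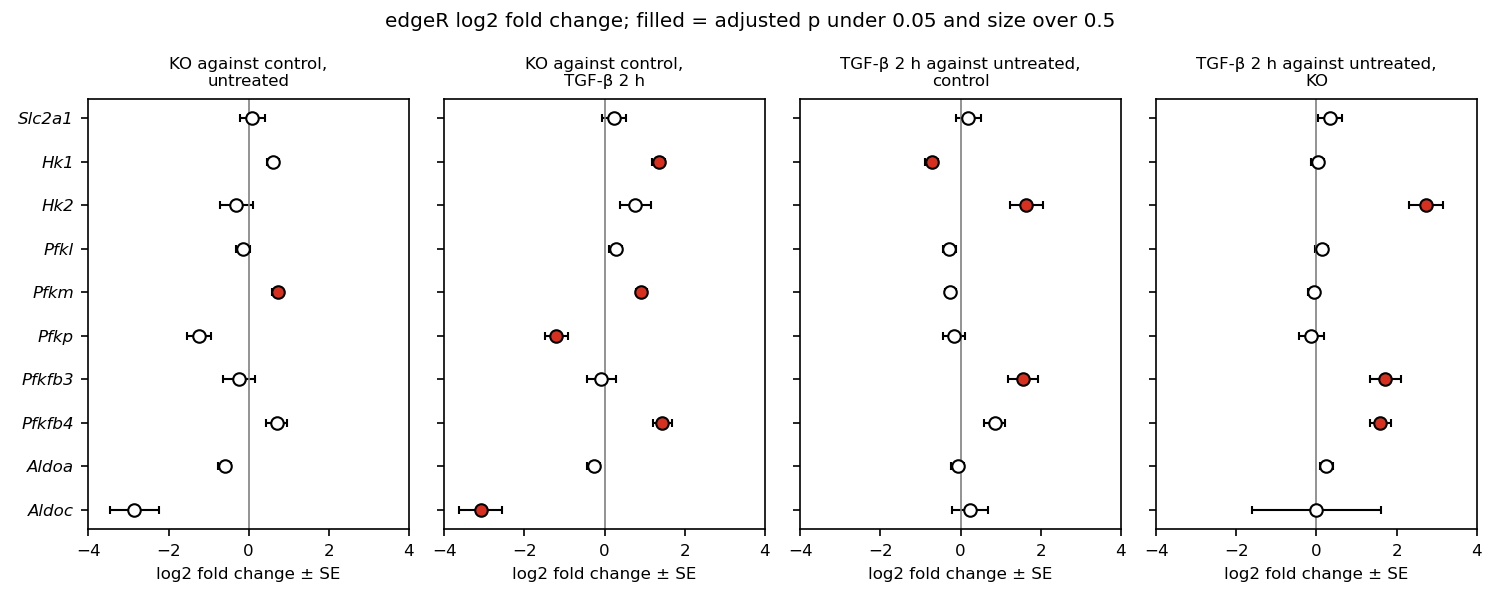
Log2 fold change (point) and standard error (bar) of each gene in the 4 comparisons from edgeR, with filled points where the gene was called. Hk1, Pfkm, Pfkp, Pfkfb4 and Aldoc differ between the labelled genotypes, called with TGF-β, and Pfkm is also called without it. Hk2 and Pfkfb3 are higher after TGF-β in both genotypes, up to 2.73 for Hk2 in KO-labelled cells.

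Pfkfb3 and Pfkfb4 encode enzymes that set the level of the PFK-1 activator. After TGF-β, Pfkfb3 was called higher in both genotypes and Pfkfb4 in KO-labelled cells. Pfkfb3 (chr2:11393057-11423728, minus strand), the form with the strongest kinase bias, stood at 15.6 and 18.2 CPM in the controls and at 65.1 and 34.2 CPM after TGF-β. In KO-labelled cells it stood at 14.3 and 14.2 CPM and at 30.2 and 63.8 CPM after TGF-β. All treated libraries were above all untreated ones, and the treated genotypes overlapped. The rise was 2.95-fold in control (log2 1.56, SE 0.38, adjusted p = 0.0356) and 3.29-fold in KO-labelled cells (log2 1.72, SE 0.39, adjusted p = 0.0322), and the genotypes gave log2 differences of -0.24 without TGF-β and -0.08 with it (adjusted p = 0.829 and 0.903).

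Pfkfb4 (chr9:108893947-108934737, plus strand) stood at 8.08 and 5.49 CPM in the controls and 13.9 and 10.7 CPM after TGF-β. In KO-labelled cells it stood at 11.9 and 10.2 CPM and at 33.9 and 32.8 CPM after TGF-β. The treated KO-labelled libraries stood far above the other 6. Pfkfb4 rose 3.03-fold with TGF-β in KO-labelled cells (log2 1.60, SE 0.25, adjusted p = 0.00635), whereas the 1.81-fold difference in control cells missed the threshold (log2 0.86, SE 0.26, adjusted p = 0.0698). With TGF-β it was 2.71-fold higher in KO-labelled than in control cells (log2 1.44, SE 0.24, adjusted p = 0.0067). The responses were not shown to differ (log2 difference 0.74, SE 0.36, adjusted p = 0.599). Leaving out replicate 1 or 2 of the untreated KO-labelled cells took the adjusted p for TGF-β in KO-labelled cells to 0.0579 or 0.0933 for Pfkfb4, with log2 fold changes of 1.71 and 1.50.

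The isozyme Pfkfb2, which was not among the 10 genes, was the largest transcript of this step without TGF-β. Per kilobase, Pfkfb2 held 64.5% to 69.8% of the 4 isozymes in the untreated libraries and 30.1% to 55.3% in the treated ones. Pfkfb3 went from 12.4% and 14.8% to 41.6% and 23.8% with TGF-β in control cells, and from 10.5% and 12.0% to 17.9% and 36.0% in KO-labelled cells. Pfkfb4 went from 11.0% and 7.61% to 15.1% and 12.7% in control cells and from 14.9% and 14.7% to 34.3% and 31.5% in KO-labelled cells. Pfkfb4 thus took over 30% of the step in the treated KO-labelled libraries alone. Pfkfb1 and Pfkfb2 were not called in any comparison, and Pfkfb2 had log2 fold changes of -0.31 in control and -0.45 in KO-labelled cells with TGF-β (adjusted p = 0.337 and 0.207). The ratio of Pfkfb3 to Pfkfb4 was 1.94-fold lower in KO-labelled cells without TGF-β and 2.94-fold lower with it, in both cases without overlap.

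Of the isozyme genes, Hk2, Pfkfb3 and Slc2a1 were also those in which the 2 libraries of a treated group differed most, apart from Aldoc with its 12 and 5 counts. All 3 were higher in replicate 1 of the treated control cells, by 1.74-fold, 1.90-fold and 1.66-fold, and in replicate 2 of the treated KO-labelled cells, by 2.59-fold, 2.11-fold and 1.73-fold. These differences were larger than those of 84.6%, 88.7% and 81.7% of all tested genes in treated control cells and of 98.2%, 96.6% and 92.3% in treated KO-labelled cells. In the untreated groups their replicates differed by at most 1.38-fold. The split was not particular to the isozyme genes. In replicates 1 and 2, Vegfa stood at 196 and 132 CPM in treated control and 159 and 428 CPM in treated KO-labelled cells. Ndrg1 stood at 232 and 120 CPM and at 123 and 333 CPM in the same groups. Txnip ran the opposite way (6.28 and 18.4 CPM, 11.3 and 1.83 CPM), and so did Bnip3 (15.7 and 24.0 CPM, 10.8 and 6.83 CPM). What set replicate 1 of the treated control and replicate 2 of the treated KO-labelled cells apart was not tested. Without them the rises were smaller: without replicate 1 of the treated control cells, Hk2 gave log2 1.18 (adjusted p = 0.0983) and Pfkfb3 1.00 (adjusted p = 0.103) in control cells, and without replicate 2 of the treated KO-labelled cells Hk2 gave 1.91, still called, and Pfkfb3 1.11 (adjusted p = 0.169) in KO-labelled cells. Leaving out other libraries also ended these calls, and all leave-one-out values kept the direction. For TGF-β in control cells, those were either untreated control library, with adjusted p of 0.170 and 0.197 for Hk2, 0.224 and 0.138 for Pfkfb3 and 0.182 and 0.0941 for Hk1, and either untreated KO-labelled library, with 0.075 for Hk2, 0.0708 and 0.071 for Pfkfb3 and 0.0587 and 0.0588 for Hk1. Hk1 was also lost without replicate 1 of the treated control cells (log2 -0.55, adjusted p = 0.0532). For TGF-β in KO-labelled cells, leaving out either untreated KO-labelled library gave 0.0769 and 0.0954 for Hk2 and 0.180 and 0.208 for Pfkfb3, and leaving out either untreated control library gave 0.0541 and 0.0537 for Pfkfb3.

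**Figure D4:**
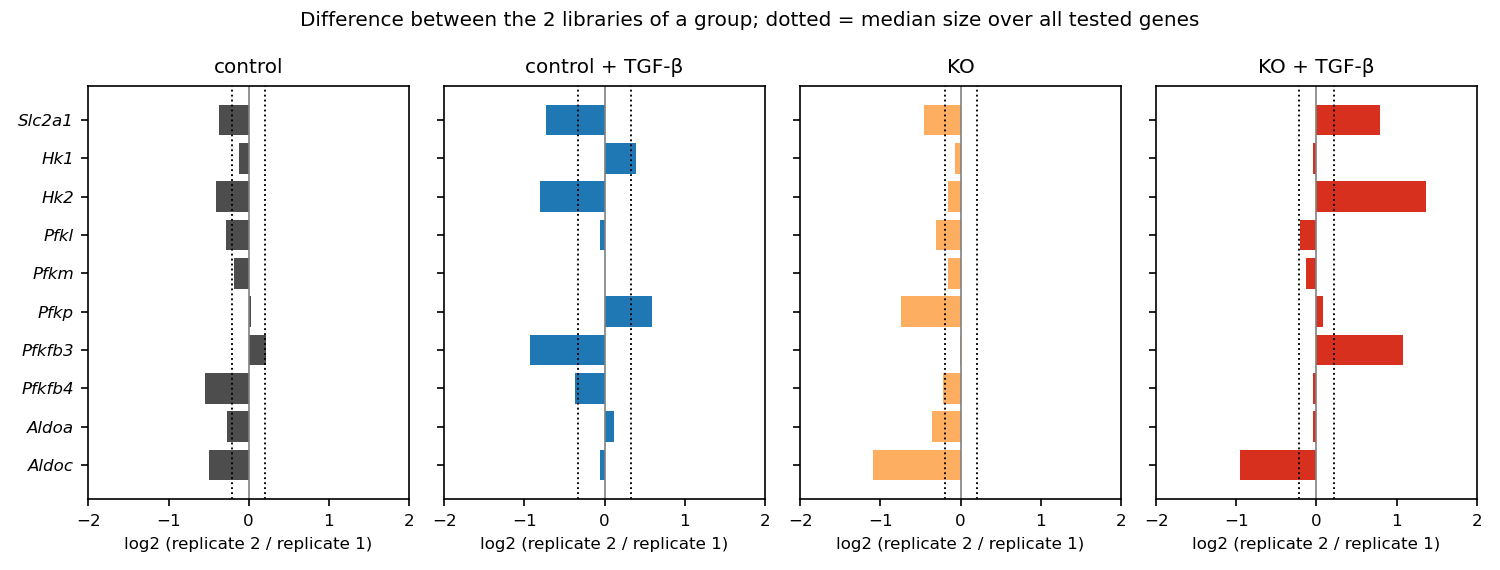
Log2 ratio of replicate 2 to replicate 1 for each gene in each group, with dotted lines at the median size of that difference over all tested genes (0.209, 0.334, 0.200 and 0.218). Slc2a1, Hk2 and Pfkfb3 point to replicate 1 in treated control cells and to replicate 2 in treated KO-labelled cells, while Pfkm and Pfkfb4 stay near 0 in treated KO-labelled cells.

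The 250 bases before the start sites of Hk2, Pfkfb3 and Pfkfb4 are shown because these 3 genes were called higher after TGF-β. They come from RefSeq on GRCm38.p6, for Hk2 at chr6:82774455-82774704 on the minus strand, for Pfkfb3 at chr2:11502091-11502340 on the minus strand (the start site nearest to the annotated gene start) and for Pfkfb4 at chr9:108991652-108991901 on the plus strand. Capitals mark ACGTG or GCGTG on either strand, the cores of the hypoxia response element.
Hk2: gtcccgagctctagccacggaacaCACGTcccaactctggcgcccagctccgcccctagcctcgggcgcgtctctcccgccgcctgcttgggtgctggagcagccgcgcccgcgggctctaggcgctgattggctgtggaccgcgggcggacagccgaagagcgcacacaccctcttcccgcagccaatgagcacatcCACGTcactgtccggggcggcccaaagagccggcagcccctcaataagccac
Pfkfb3: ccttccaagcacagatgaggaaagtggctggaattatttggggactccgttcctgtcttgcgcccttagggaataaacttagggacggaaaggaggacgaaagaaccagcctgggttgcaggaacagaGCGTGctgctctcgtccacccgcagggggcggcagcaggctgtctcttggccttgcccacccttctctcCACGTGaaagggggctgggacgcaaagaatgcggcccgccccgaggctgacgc
Pfkfb4: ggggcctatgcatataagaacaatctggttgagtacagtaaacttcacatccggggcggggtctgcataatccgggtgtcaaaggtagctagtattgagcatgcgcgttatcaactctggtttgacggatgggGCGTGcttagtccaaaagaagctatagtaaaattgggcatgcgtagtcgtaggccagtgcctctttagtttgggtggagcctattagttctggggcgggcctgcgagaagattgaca
Hk2 holds ACGTG at 2 places, Pfkfb3 holds ACGTG at 2 places, which are both strands of 1 CACGTG, and GCGTG at 1, and Pfkfb4 holds GCGTG at 1 and no ACGTG. All 10 genes had entries in the promoter table, 18 in all because some have several start sites. Searched on both strands of 250 bases, ACGTG was present in 8 of the 18 and in 16.6% of the 32851 promoters of the table, GCGTG in 10 and 28.2%, CACGTG (the E-box, which overlaps ACGTG) in 2 and 6.02%, GGGCGG (the GC box) in 9 and 32.7%, and CAGAC (a Smad-binding element) in 6 and 42.2%. Some of the 18 windows overlap, as for Aldoa and Pfkm, so a site can be counted more than once. The shares of the 18 are therefore not those of separate promoters, and no enrichment was tested. These are matches of letters, and no binding was measured.

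At the aldolase step one isozyme made up nearly all transcripts. Aldoa (chr7:133938748-133944265, minus strand) stood at 1262 and 1050 CPM in control cells, 1055 and 1141 CPM in treated control cells, 860 and 669 CPM in KO-labelled cells and 922 and 891 CPM in treated KO-labelled cells. The KO-labelled libraries lay below the control libraries in both conditions, but neither difference was called in the main edgeR fit (log2 -0.60, SE 0.16, adjusted p = 0.105 without TGF-β, and -0.28, SE 0.16, adjusted p = 0.26 with it). The difference without TGF-β was called with DESeq2 (adjusted p = 0.0305) and with edgeR without the filter on low counts (0.00192). It was also called with only the 4 libraries compared (0.0281) and with exchanged replicate numbers as a block (0.0421). Short stretches of Aldoa, 0.883% of its 75-base windows, are shared with the copy Aldoart1, which had 97 to 238 counts per library.

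Aldoc (chr11:78136470-78141283, plus strand) was rare in control cells and close to the detection limit in KO-labelled cells. It had 49 and 34 counts in control, 65 and 55 in treated control, 5 and 3 in KO-labelled and 12 and 5 in treated KO-labelled cells. In CPM these were 5.91 and 4.15, 6.09 and 5.82, 1.10 and 0.399, and 0.978 and 0.397. All 4 KO-labelled libraries were below all 4 control libraries. With TGF-β Aldoc was 8.54-fold lower in KO-labelled cells (log2 -3.09, SE 0.53, adjusted p = 0.0073), a call that was lost without replicate 2 of the treated KO-labelled cells (log2 -2.58, adjusted p = 0.0598) and kept without replicate 1 (log2 -3.85). Without TGF-β it was 7.21-fold lower with an adjusted p of 0.0516 (log2 -2.85, SE 0.61), and the log2 value was -3.62 without replicate 1 and -2.18 without replicate 2 of the KO-labelled cells. The summed counts, scaled by library, gave control to KO-labelled ratios of 8.72 (95% interval 5.22 to 15.5) and 7.59 (3.68 to 18.2), for counting error only. Aldoa held at least 99.5% of the step per kilobase in each library, so the summed level was close to that of Aldoa alone, at 421 ± 54.8 CPM per kb in control, 401 ± 22.0 in treated control, 278 ± 49.0 in KO-labelled and 329 ± 8.02 in treated KO-labelled cells (SD, n = 2).

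No gene in the table was called for a difference between the genotypes in their response to TGF-β with the main edgeR fit. There 1134 genes, 8.7% of those tested, had an unadjusted p below 0.05, among the 10 only Hk1. DESeq2 called 25 genes and edgeR without the filter on low counts 211. Under the latter Hk2 was called (log2 1.14, SE 0.26, adjusted p = 0.0031), and over the 6 alternative fits and 8 leave-one-out fits its adjusted p ran from 0.0031 to 0.968.

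Of 12 tested genes for the rest of glycolysis, from phosphoglucose isomerase to the export of lactate, none was called between genotypes without TGF-β. Their median log2 fold change there was -0.33, beside 0.02 for all genes, with 9 of the 12 below 0 where 47.9% of all genes were. Between treated genotypes it was -0.15, beside -0.01 for all genes, with 8 of the 12 below 0 where 50.9% of all genes were. There Ldha, which turns pyruvate into lactate, was lower in KO-labelled cells (979.7 against 1468 CPM, log2 -0.58, SE 0.15, adjusted p = 0.0313). TGF-β raised Eno3, the muscle enolase, in control cells (log2 0.65, SE 0.15, adjusted p = 0.0278), and none was called for TGF-β in KO-labelled cells. Of 10 tested enzymes that oppose or branch from the pathway, none was called between genotypes. TGF-β lowered Tigar, which degrades the PFK-1 activator, in control (log2 -0.75, SE 0.20, adjusted p = 0.0486) and KO-labelled cells (log2 -0.83, SE 0.20, adjusted p = 0.041), opposite to Pfkfb3, and raised Pgm1 in control cells (log2 0.87, SE 0.20, adjusted p = 0.0296).

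Among 10 regulators of these genes, Epas1, which encodes a hypoxia-inducible factor, was lower in KO-labelled cells without TGF-β (2.39 against 11.0 CPM, log2 -2.17, SE 0.45, adjusted p = 0.0467) and with it (1.20 against 4.41 CPM, log2 -1.86, SE 0.45, adjusted p = 0.0255). Hif1a, at 158 to 330 CPM, was not called. Arrdc4 was called lower with TGF-β, at 0 counts in both treated KO-labelled libraries and 11 and 24 in the treated control libraries, and TGF-β lowered Mlxip in control cells (log2 -0.97, SE 0.23, adjusted p = 0.0315). Of 9 tested hypoxia-inducible genes outside glycolysis, Bnip3 (log2 -1.17, SE 0.31, adjusted p = 0.033) and P4ha1 (log2 -0.86, SE 0.16, adjusted p = 0.0102) were lower in treated KO-labelled than in treated control cells. TGF-β raised Ddit4 in control (log2 1.67, SE 0.36, adjusted p = 0.025) and KO-labelled cells (log2 2.06, SE 0.37, adjusted p = 0.0117), and in KO-labelled cells raised Vegfa (log2 1.92, SE 0.41, adjusted p = 0.024) and lowered Egln3 (log2 -0.95, SE 0.18, adjusted p = 0.0169). The replicates lay apart for Vegfa in treated KO-labelled cells (159 and 428 CPM) and for Ddit4 in treated control cells (189 and 81.8 CPM). The median of the 9 hypoxia-inducible genes was 0.52 for TGF-β in control cells and 0.89 in KO-labelled cells. These medians were above those of 0.06 and 0.19 for the 10 isozyme genes. The part of the replicate differences in them was not tested.

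**Figure D5:**
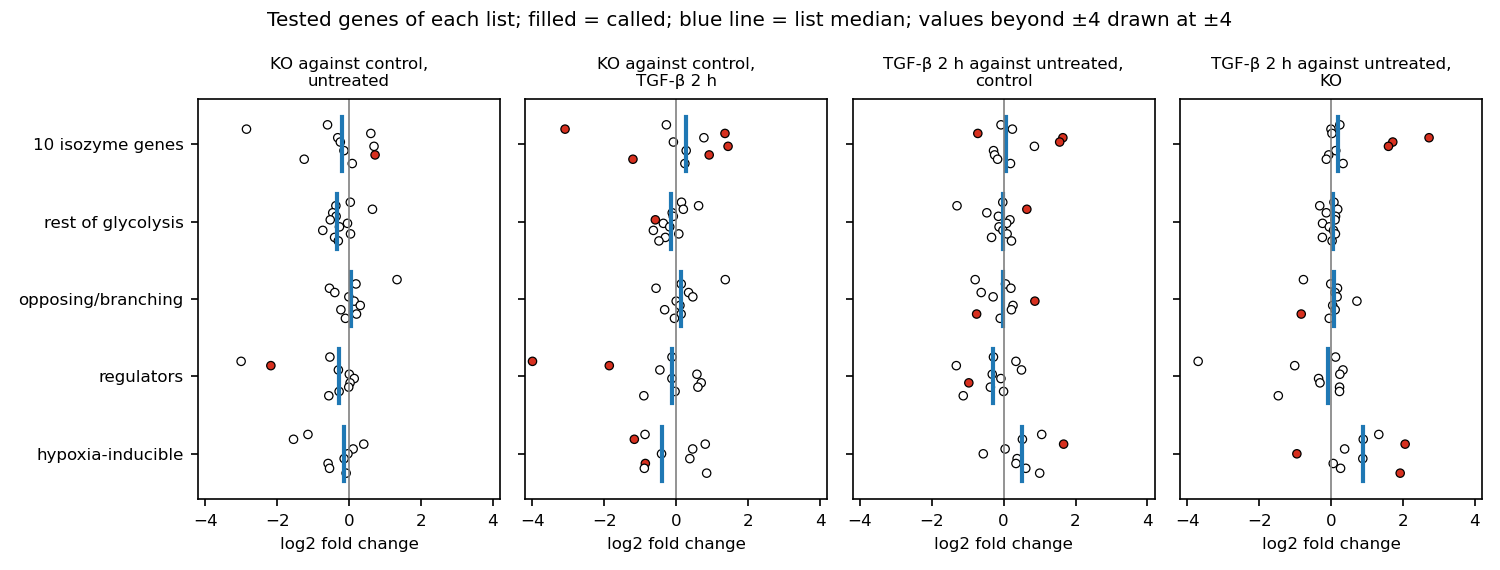
Log2 fold change of every tested gene of 5 lists in the 4 comparisons, with filled points for called genes, a blue line at the list median and values beyond 4 in size drawn at the edge (Arrdc4, at 0 counts in treated KO-labelled cells). The rest of glycolysis has its median at -0.33 between untreated and -0.15 between treated genotypes and 1 called gene in each of 2 comparisons, and the 10 isozyme genes include called genes in both directions between treated genotypes.

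The genes whose log2 level followed Hk1, Pfkm, Pfkp, Pfkfb3, Pfkfb4 or Aldoc most closely over the 8 libraries, among 13018 tested genes outside the 10, are given as a description, since the libraries of a group move together. They were Khk for Hk1 (Pearson r = 0.992), Vps53 for Pfkm (0.991), Cmtm8 for Pfkp (0.993), Map4k4 for Pfkfb3 (0.993), Gadd45g for Pfkfb4 (0.988) and Hddc3 for Aldoc (0.981). Khk encodes ketohexokinase, the enzyme that phosphorylates fructose.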

How the data were processed

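RNA-seq counts of 8 NMuMG libraries were used. The labels give a TruSeq stranded total RNA kit, 75-base paired reads on a NextSeq instrument and HISAT2, limma and mm10 in the submitters' processing notes, while the study's methods describe a stranded mRNA kit and alignment with subjunc, so the steps behind the table are uncertain. The authors deposited whole-number counts per gene, not normalized. The tool that counted, its annotation and its strand setting are not given in the sources used here. All 37310 gene identifiers matched GENCODE vM1 (NCBIM37) in the same order, and gene coordinates and lengths were taken from it.

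Groups followed the labels. Genes were filtered with filterByExpr, scaled by TMM and fitted over all 4 groups with edgeR's quasi-likelihood test (edgeR 4.0.16, R 4.3.3) without a replicate block, with Benjamini-Hochberg adjustment over 13028 genes. The common biological coefficient of variation was 0.18, with 4 residual and 5.5 prior degrees of freedom. A gene was called at an adjusted p below 0.05 and a log2 fold change above 0.5 in size, and the difference between responses at the adjusted p alone. CPM were TMM-scaled, and values per kb used the exon union. Ratios within a library used counts per kb after adding 0.5 to each count, without a test. No column of another series was present. The code was tested on simulated data. Alternatives were DESeq2 1.42.0, limma-voom (limma 3.58.1), RLE factors, no filter, only the 4 libraries compared, a replicate block, the adjusted p alone and leaving out each library. The 10 genes, the lists and the rules for naming genes (every listed gene that was called, and the nearest pattern by Pearson r) were chosen with earlier results of these data known. The nearest pattern to Hk2 is not reported here. The precision of low genes is set by their counts: 3 counts equal 0.238 to 0.661 CPM per library.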

Additional observations from a re-analysis of the deposited data

How the results depend on the processing

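The calls of Hk1, Pfkm and Pfkfb4 between treated KO-labelled and treated control cells held under all 16 alternatives, with log2 fold changes of 1.19 to 1.57, 0.85 to 0.99 and 1.27 to 1.66. With DESeq2, without the filter, with only the 4 libraries compared and with exchanged numbers as a block, Hk1, Pfkp, Aldoa and Aldoc were also called between the untreated genotypes. Leaving out either treated control library likewise called Hk1 (0.0422 and 0.0426) and Pfkp (0.0348 and 0.0377), and leaving out any 1 of the 4 treated libraries called Aldoc (0.0428 to 0.0494). Pfkfb4 was called for TGF-β in control cells without the filter (adjusted p = 0.0377) and with exchanged numbers as a block (0.0313), and so was Hk2 between treated genotypes (0.00024 and 0.0471). The Hk2 and Pfkfb3 calls for TGF-β in control cells were lost with limma-voom (0.0568 and 0.0693), the Pfkfb3 call in KO-labelled cells likewise (0.0945), and with only the 4 libraries compared so were those of Hk1 for TGF-β in control cells (0.0851) and Pfkp between treated genotypes (0.075). The causes were not tested.

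The count of called genes between untreated genotypes, 238, was 428 with DESeq2, 137 with limma-voom, 756 without the filter, 804 with only the 4 libraries compared and 42 to 390 leaving out 1 library. That between treated genotypes, 1959, was 410 with only 4 libraries and 477 to 2762 leaving out 1. For TGF-β in control cells 1194 became 2021 without the filter, 470 with only 4 libraries and 145 to 1484 leaving out 1, and in KO-labelled cells 889 became 1832 without the filter and 136 to 1381 leaving out 1. The difference between responses gave 25 genes with DESeq2, 211 without the filter and 0 to 6 leaving out 1 library.

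Replicate numbers were not shown to pair the libraries: the deviations of same-numbered libraries correlated at 0.098, -0.473, 0.297 and -0.00915 in the 4 comparisons, with 2 pairs each. With the replicate block the untreated genotypes gave 150 called genes, and the calls of Pfkm there (adjusted p = 0.05) and of Hk2 (0.0639) and Pfkfb3 (0.0598) for TGF-β in control cells and Pfkfb3 in KO-labelled cells (0.0589) were lost. Exchanging the numbers of the treated KO-labelled libraries, an alternative added after the data were seen, gave 540, 1954, 1550 and 5 called genes for the untreated genotypes, TGF-β in control, TGF-β in KO-labelled cells and the difference between responses.

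Directions that turned belonged to differences that were not called. Aldoc with TGF-β in KO-labelled cells was 0.0064 with RLE factors, 0.060 without the filter, 0.013 with exchanged numbers and -0.74 to 0.77 leaving out 1 library. Leaving out 1 library, the log2 fold changes between untreated genotypes ran from -0.30 to 0.0063 for Pfkl and from -0.15 to 0.30 for Slc2a1, and between treated genotypes from -0.065 to 1.30 for Hk2, -0.71 to 0.48 for Pfkfb3 and -0.20 to 0.67 for Slc2a1. For TGF-β in control cells they ran from -0.49 to 0.085 for Pfkp, -0.24 to 0.51 for Slc2a1 and -0.20 to 0.064 for Aldoa, and in KO-labelled cells from -0.0052 to 0.30 for Pfkl, -0.13 to 0.033 for Pfkm, -0.48 to 0.27 for Pfkp and -0.084 to 0.70 for Slc2a1. The difference between responses ran from -0.31 to 0.44 for Pfkp, -0.44 to 0.74 for Pfkfb3, -0.27 to 0.60 for Slc2a1 and -0.98 to 0.52 for Aldoc. Depth limits Aldoc most, with 3 to 12 counts in the KO-labelled libraries.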
